A study of Mus musculus with 8 samples.

Results

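Pf4, Ppbp, Vwf, Itga2b, Gp5, Gp9, Gp1ba, Gp1bb, Clec1b and Treml1 encode proteins by which megakaryocytes and platelets are recognised: granule cargo, the receptor for von Willebrand factor, the fibrinogen receptor and surface receptors. Their probe sets were taken as those of the array whose only gene symbol in the platform annotation is a listed gene, without regard to their values. That gave 10 of 45037 probe sets (control probe sets left out), covering 9 of the 10 genes. Gp1bb has 2 of them and the other 8 genes 1 each. Gp1ba was not analysed here, and 1 further probe set, which carries the symbols of Gp1bb and Septin5, falls outside the rule. The RNA was that of flow-sorted cells of mouse bone marrow, read on 8 Affymetrix arrays. The 4 L-GMP arrays (replicates A to D) carry the genotype label HoxA9+Meis1 AML, a mouse acute myeloid leukaemia, and the 4 GMP arrays (A to D) the label Normal; all were sorted as GMPs, the granulocyte-macrophage progenitors. Strain, age, the way the leukaemia was made and whether each array stands for its own animal are not given in the sources used here. The p-values therefore take in only the spread among these arrays, and part or all of it may be technical.

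Megakaryocytes fill alpha granules with adhesive proteins and chemokines, set up a dense field of surface receptors and shed platelets into the blood. On platelets, GPIb-IX-V catches von Willebrand factor on a damaged vessel wall, integrin αIIbβ3 then binds fibrinogen and links platelets to each other, and the released granules pass the signal on. Normal GMPs are the step before neutrophils and monocytes and are not regarded as a source of platelets, although early progenitors and stem cells can carry some of these transcripts. GATA1, with partners of the ETS family such as FLI1, is the textbook activator of the megakaryocyte genes.

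The stretches where transcription of 4 of these genes begins are shown because Pf4, Itga2b and Gp5 were lower in L-GMPs and Ppbp, the neighbour of Pf4 on chromosome 5, did not pass the test. Vwf was lower too, but no such stretch was available for it in the sequences used here. The choice followed the test, and a link between motif matches and falls was not tested. Sequences are those of RefSeq, GRCm38.p6, 250 bases before to 50 after the start of transcription, written 5′ to 3′ on the gene's own strand: Pf4 chr5:90772185-90772484 on the plus strand, Ppbp chr5:90768268-90768567 on the plus strand, Itga2b chr11:102469834-102470133 on the minus strand and Gp5 chr16:30310732-30311031 on the minus strand. Capitals mark matches to a GATA motif (AGATAA, its variant TGATAA, the spelling AGATAG or the spelling TGATAG) or to an ETS motif (AGGAAG or the spelling CGGAAG), each searched on both strands.
Pf4: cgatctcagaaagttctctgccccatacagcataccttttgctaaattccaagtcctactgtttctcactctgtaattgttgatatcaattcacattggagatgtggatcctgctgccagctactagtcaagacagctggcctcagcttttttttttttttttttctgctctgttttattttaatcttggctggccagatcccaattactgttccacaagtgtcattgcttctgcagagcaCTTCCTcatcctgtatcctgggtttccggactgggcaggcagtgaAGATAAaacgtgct
Ppbp: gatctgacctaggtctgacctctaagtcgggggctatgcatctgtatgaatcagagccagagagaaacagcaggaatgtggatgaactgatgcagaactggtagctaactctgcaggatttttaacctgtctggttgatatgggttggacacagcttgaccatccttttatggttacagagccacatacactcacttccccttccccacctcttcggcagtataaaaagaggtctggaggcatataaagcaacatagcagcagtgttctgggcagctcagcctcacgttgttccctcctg
Itga2b: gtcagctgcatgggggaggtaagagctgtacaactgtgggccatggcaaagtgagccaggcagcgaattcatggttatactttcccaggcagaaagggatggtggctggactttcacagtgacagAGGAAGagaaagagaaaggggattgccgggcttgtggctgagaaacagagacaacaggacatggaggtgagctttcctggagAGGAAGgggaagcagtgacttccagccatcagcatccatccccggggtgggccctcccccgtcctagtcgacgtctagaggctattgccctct
Gp5: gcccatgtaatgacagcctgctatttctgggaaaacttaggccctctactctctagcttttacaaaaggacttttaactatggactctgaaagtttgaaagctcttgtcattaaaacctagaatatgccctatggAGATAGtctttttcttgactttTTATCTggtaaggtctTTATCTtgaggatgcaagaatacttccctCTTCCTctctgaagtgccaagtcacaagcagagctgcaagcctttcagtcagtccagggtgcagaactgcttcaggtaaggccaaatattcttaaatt
Pf4 had a GATA match 37 bases after the start and an ETS match 9 bases before it. Gp5 had 3 GATA matches, 115, 93 and 77 bases before the start, and an ETS match 48 bases before it. Itga2b had ETS matches 125 and 43 bases before the start and no GATA match in this window, and Ppbp had neither. Of the 9 members with a window, Gp1ba among them, 5 held a GATA match and 6 an ETS match, against 29.8% and 46.5% of all 32851 windows of the table. Gp9 and Gp1bb held an ETS match and did not pass the test. Gp1bb also held a GATA match, 22 bases before the start, and Clec1b held GATA matches 189 bases before and 38 after it. Clec1b did not pass the test either. These are matches of letters and not measured binding.

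Values are log2 of the deposited RMA intensities, and the change of a probe set is L-GMP minus GMP, tested by limma with Benjamini-Hochberg adjustment over all 45037 probe sets at 0.05. Of the 10 member probe sets, 4 were lower in L-GMPs (Pf4, Vwf, Itga2b and Gp5) and 0 were higher, where 7.03% of all probe sets were called lower and 3.89% higher. At an unadjusted p under 0.05, 8 were lower and 0 higher. In 6 of the 10 all L-GMP arrays lay below all GMP arrays, where 9.76% of all probe sets did so, and in 0 they lay above, where 7.38% of all probe sets did so. The median change was -0.75, beside 0.00 over all probe sets. Without GMP replicate A, the array in which most members were highest, 3 were lower and the median change was -0.48. The genes were chosen with earlier results of these arrays known, so these counts describe the 10 probe sets and do not test them as a group.

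**Figure D1:**
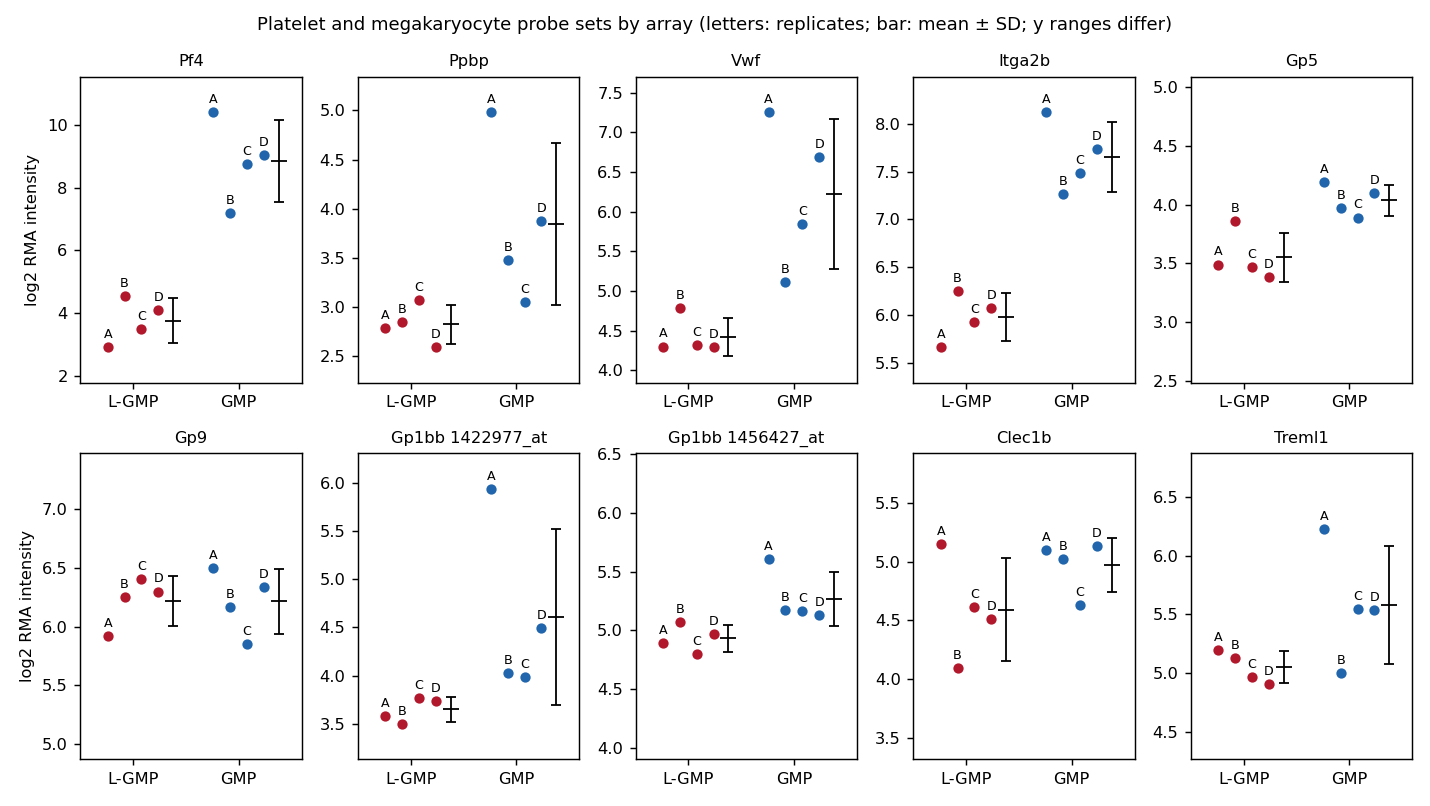
Log2 RMA intensity (y axis, its range set for each panel) of the 10 member probe sets on each L-GMP array (red) and each GMP array (blue), with replicate letters and the mean ± SD of the 4 arrays in black. Pf4 lay between 2.90 and 4.55 in L-GMPs and between 7.20 and 10.40 in GMPs, and GMP replicate A was the highest GMP array in 9 of the 10 panels.

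Among the granule proteins, Pf4 encodes platelet factor 4, a heparin-binding CXC chemokine stored in alpha granules and used as the standard marker gene of the megakaryocyte lineage. In L-GMP replicates A to D it was 2.90, 4.55, 3.48 and 4.09, against 10.40, 7.20, 8.76 and 9.05 in GMP replicates A to D. As deposited intensities these are 7.5 to 23.4 in L-GMPs, against 147.2 to 1355.7 in GMPs. The groups were 2.65 apart on the log2 scale at their nearest arrays, and both varied within themselves. Pf4 fell by 5.10 (SE 0.57, 34.3-fold, adjusted p = 0.000307), to 3.75 ± 0.72 in L-GMPs, against 8.85 ± 1.31 in GMPs (SD, n = 4 each). Adding 16 to each intensity before log2, which lessens the weight of dim values, made the change -4.00 (adjusted p = 0.00392). L-GMP replicate A stood at the 10th percentile of all probe sets of its array and L-GMP replicate B at the 38.9th, so the L-GMP level is low and the fold is uncertain in size.

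Ppbp encodes pro-platelet basic protein, a second CXC chemokine of the alpha granule whose gene lies next to Pf4. It was 2.79, 2.85, 3.07 and 2.59 in L-GMP replicates A to D, against 4.98, 3.48, 3.05 and 3.87 in GMP replicates A to D. Only GMP replicate C lay within the L-GMP range, and by 0.02. The change was -1.02 (SE 0.33, 95% interval -1.76 to -0.28, adjusted p = 0.0812) and did not pass the threshold. All L-GMP arrays had it between the 5.55th and 13.3th percentile of their probe sets. Without GMP replicate C the change was -1.29 and passed (adjusted p = 0.0369), and without GMP replicate A it was -0.64 (adjusted p = 0.0644).

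Vwf encodes von Willebrand factor, the multimeric ligand of the platelet receptor, made by megakaryocytes and endothelial cells and also transcribed in a part of the stem cells. Its values were 4.30, 4.78, 4.32 and 4.29 in L-GMP replicates A to D, against 7.25, 5.11, 5.84 and 6.69 in GMP replicates A to D. The L-GMP arrays were close together apart from replicate B, and the groups were 0.34 apart, between L-GMP replicate B and GMP replicate B. Vwf fell by 1.80 (SE 0.38, 3.49-fold, adjusted p = 0.0129), to 4.42 ± 0.24 in L-GMPs, against 6.22 ± 0.94 in GMPs (SD, n = 4 each). The call was kept without each array in turn (adjusted p 0.00224 to 0.0448). Endothelial cells also make this protein, and of 17 endothelial genes 3 fell (Tek, Tie1 and Emcn), 1 rose (Pecam1) and 13 did not pass the test. Their part in the Vwf change was not tested.

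Itga2b encodes the αIIb chain (CD41) of the fibrinogen receptor, an early mark of commitment to megakaryocytes. It was 5.66, 6.25, 5.93 and 6.07 in L-GMP replicates A to D, against 8.12, 7.27, 7.48 and 7.74 in GMP replicates A to D. The groups were 1.02 apart at their nearest arrays. The SD among GMP arrays was larger than that of 92.3% of all probe sets. Itga2b fell by 1.68 (SE 0.19, 3.20-fold, adjusted p = 0.000315), to 5.98 ± 0.25 in L-GMPs, against 7.65 ± 0.37 in GMPs (SD, n = 4 each). Its partner Itgb3, the β3 chain that other cells pair with further α chains, was chosen after its values were seen. Its brighter probe set had 8.93, 9.01, 10.04 and 9.71 in L-GMP replicates A to D, against 9.66, 8.39, 9.01 and 9.22 in GMP replicates A to D. The Itgb3 groups overlapped, with a change of 0.36 (SE 0.30, adjusted p = 0.506).

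The GPIb-IX-V complex is built of leucine-rich repeat proteins encoded by separate genes, of which Gp5, Gp9 and Gp1bb were measured. Gp5, the subunit that thrombin cuts, was 3.49, 3.86, 3.47 and 3.38 in L-GMP replicates A to D, against 4.19, 3.97, 3.89 and 4.10 in GMP replicates A to D. The groups did not overlap but were 0.03 apart. Gp5 fell by 0.49 (SE 0.13, 1.40-fold, adjusted p = 0.0366), to 3.55 ± 0.21 in L-GMPs, against 4.04 ± 0.14 in GMPs (SD, n = 4 each). This call was not firm. Leaving out L-GMP replicate B kept it (adjusted p = 0.0104), but leaving out any of the other 7 arrays lost it (0.0521 to 0.0947), as did an offset of 16 (0.057), the replicate letter as a block (0.0745) and centring each array on its median, which made the change -0.35 (0.114).

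Gp9, needed with the GPIb chains to bring the complex to the surface, was 5.92, 6.25, 6.41 and 6.30 in L-GMP replicates A to D, against 6.50, 6.17, 5.85 and 6.34 in GMP replicates A to D. The ranges overlapped almost wholly, with a change of 0.01 (SE 0.16, 95% interval -0.35 to 0.36, adjusted p = 0.985). A difference of up to 0.36 either way on the log2 scale lies within that interval.

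Gp1bb, the chain linked to GPIbα by a disulphide bond, has 2 probe sets that differ in spread. In 1422977_at it was 3.58, 3.5, 3.77 and 3.74 in L-GMP replicates A to D, against 5.94, 4.03, 3.98 and 4.49 in GMP replicates A to D. GMP replicate A was far above the other GMP arrays, and the groups were 0.21 apart. The change was -0.97 (SE 0.36, 95% interval -1.76 to -0.17, adjusted p = 0.121), and -0.52 without GMP replicate A (adjusted p = 0.0502). In 1456427_at Gp1bb was 4.89, 5.07, 4.80 and 4.97 in L-GMP replicates A to D, against 5.61, 5.17, 5.16 and 5.13 in GMP replicates A to D. Here too GMP replicate A was the highest array, and the groups were 0.06 apart, with a change of -0.34 (SE 0.13, adjusted p = 0.136). Neither probe set passed the threshold.

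Clec1b encodes CLEC-2, the podoplanin receptor of platelets, which signals through an ITAM-like motif. It was 5.15, 4.09, 4.61 and 4.51 in L-GMP replicates A to D, against 5.10, 5.02, 4.63 and 5.13 in GMP replicates A to D. L-GMP replicate A was the highest of all 8 arrays, so the groups overlapped, and the change was -0.38 (SE 0.21, 95% interval -0.84 to 0.08, adjusted p = 0.29). Treml1 encodes TLT-1, a receptor of the alpha granule membrane that reaches the surface on activation. It was 5.20, 5.13, 4.97 and 4.91 in L-GMP replicates A to D, against 6.23, 5.0, 5.55 and 5.54 in GMP replicates A to D. GMP replicate B lay within the L-GMP range, and the change was -0.53 (SE 0.22, adjusted p = 0.156). Without GMP replicate B the Treml1 change was -0.72 and passed (adjusted p = 0.0486).

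**Figure D2:**
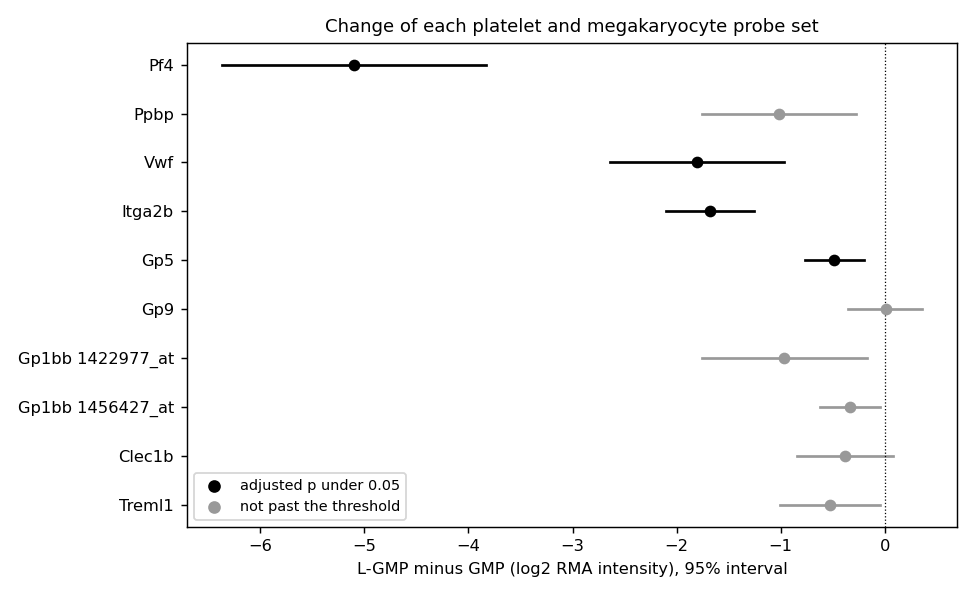
Change of each member probe set, L-GMP minus GMP, in log2 RMA intensity (x axis) with its 95% interval from the limma fit; black probe sets had an adjusted p under 0.05 and grey ones did not. Pf4 stands at -5.10, Vwf at -1.80 and Itga2b at -1.68, while Gp9 stands at 0.01.

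The GMP arrays differed from each other in these genes. The SD among GMP arrays was 1.31 for Pf4, 0.94 for Vwf, 0.91 for Gp1bb (1422977_at) and 0.83 for Ppbp, each larger than that of at least 99.8% of all probe sets. The lowest SDs were those of Gp5 (0.14), which exceeded 31.5% of all probe sets, and of Clec1b and the other Gp1bb probe set (both 0.23). The median SD over the 10 probe sets was 0.44 among GMP arrays, beside 0.18 over all probe sets. Among L-GMP arrays it was 0.21, beside 0.18 over all probe sets. The SD was larger in GMPs in 8 of the 10, and in 48.9% of all probe sets. Some members were dim in L-GMPs, where RMA compresses low values. Ppbp lay at percentile 5.55 to 13.3 there and Gp1bb (1422977_at) at percentile 20.8 to 26.3. The part of this lower level in the smaller L-GMP SDs was not tested.

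The order of the GMP arrays was shared in part from gene to gene, mainly in its highest array. GMP replicate A was the highest GMP array in 9 of the 10 member probe sets, the exception being Clec1b. It was highest in 29.1% of all probe sets. The lowest GMP array was replicate B in 4 of the 10, C in 5 and D in 1. Over all probe sets these shares were 18.6%, 25.2% and 23.5%. Pf4 spanned 3.20 on the log2 scale between GMP replicates A and B, a 9.21-fold range of intensity. For Vwf the GMP range was 4.41-fold, for Gp1bb (1422977_at) 3.87-fold and for Ppbp 3.82-fold, whereas for Itga2b it was 1.80-fold and for Gp5 1.24-fold. GMP replicate D came second after A in 7 of the 10 probe sets, an order found in 9.03% of all probe sets. Pf4, Vwf and Itga2b shared the whole order A, D, C, B (3.95% of all probe sets), and Ppbp, Gp5, Gp9 and Gp1bb (1422977_at) the order A, D, B, C (5.08%). These shares were looked up after the order was seen and are a description. In bulk samples, a different share of cells carrying a transcript and a different amount of it per cell cannot be told apart.

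**Figure D3:**
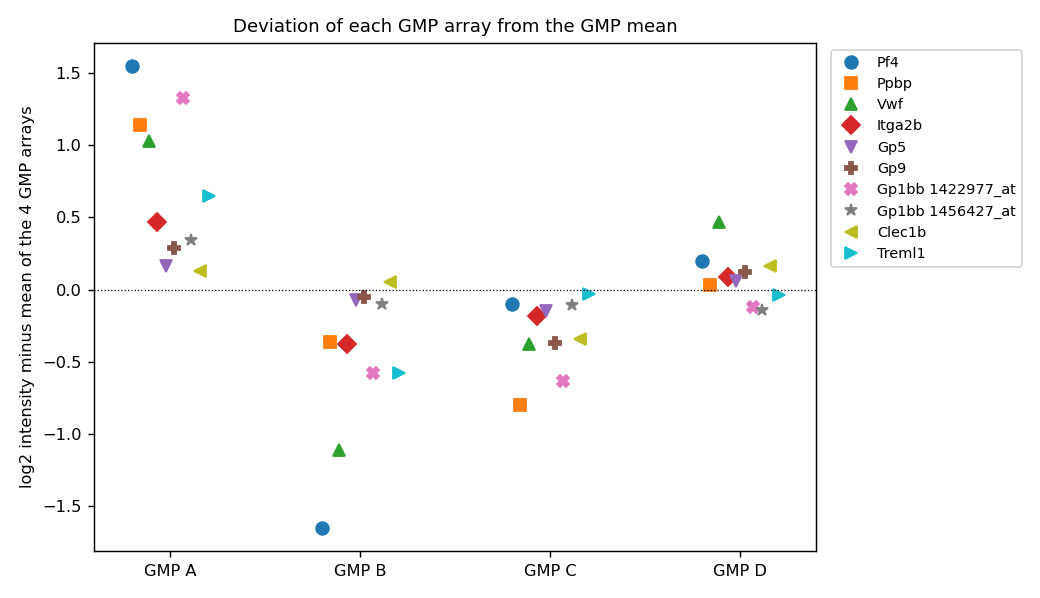
Log2 RMA intensity of each GMP array minus the mean of the 4 GMP arrays (y axis) for the 10 member probe sets, by GMP replicate (x axis, points shifted sideways for legibility). All points of replicate A lie above 0, from 0.13 for Clec1b to 1.55 for Pf4, and Pf4 reaches -1.65 in replicate B.

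Markers of other cells were set beside this order, as summed intensity over each list's genes. The brightest genes weigh most in such a sum, such as Hba-a2 among the erythroid genes and Pecam1 among the endothelial genes. For 22 erythroid genes the sum was 5003 to 5228 in L-GMPs, against 5924, 5826, 5813 and 5473 in GMP replicates A to D. Hba-a2 did not share this difference, with a mean of 11.63 in L-GMPs and 11.44 in GMPs, whereas Car2 fell by 4.32. Counted gene by gene, GMP replicate A was the highest GMP array in 9 of the 22 and the lowest in 3. GMP replicate B was the highest in 4 and the lowest in 7. For 15 eosinophil, basophil and mast cell genes the sum was 1158 to 1987 in L-GMPs, against 7600, 11721, 5006 and 5159 in GMP replicates A to D, so replicate B, the lowest in Pf4, Vwf and Itga2b, was the highest there. For 17 endothelial genes the sums overlapped, with 801 to 967 in L-GMPs and 772 to 929 in GMPs, GMP replicate A being the highest GMP array. The 16 lymphoid genes summed to 668 to 1018 in L-GMPs and 665 to 733 in GMPs. The sum of 1018 was that of L-GMP replicate D, where Vpreb1 was 8.83, against 6.09 to 7.58 in the other L-GMP arrays. RNA quality also differed, since the 3′ minus 5′ difference of the Gapdh control probe sets was 1.24 to 1.55 in L-GMPs, against 1.5, 1.76, 1.46 and 2.74 in GMP replicates A to D. The part of other cells or of RNA quality in the order of the GMP arrays was not tested.

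Further facts of the arrays bear on all values. The median log2 intensity was 5.24 to 5.30 on L-GMP arrays and 5.33 to 5.49 on GMP arrays, and centring each array on its median moved the median change of all probe sets from 0.00 to 0.14. Hoxa9, which the leukaemia's label names, had a change of 4.82 in one probe set (adjusted p = 3.1e-06) and of -6.66 in the other (adjusted p = 1.85e-09). Meis1 was lower in L-GMPs in all 3 of its probe sets, so neither gene checks the labels fully. Mpo, the myeloperoxidase gene by which GMPs are known, was high in both groups, at 13.12 to 13.35 in L-GMPs and 13.58 to 13.67 in GMPs.

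The other genes of the platelet and megakaryocyte system were read from lists chosen by function, with the members left out and each gene represented by its brightest probe set. Among 18193 genes so represented, 6.87% were called lower, 4.33% higher, and the median change was 0.01. Of 17 further alpha granule genes, 2 fell and 1 rose (median change -0.17). Clu, the chaperone clusterin, fell by 1.63 (SE 0.18, adjusted p = 0.000247) in a probe set whose suffix marks possible cross-hybridisation. Srgn, the granule proteoglycan serglycin that also packs the granules of myeloid cells, had the highest mean and fell by 0.57 (adjusted p = 0.0295). The Srgn call was lost after centring on the median and when any array other than L-GMP replicate B or D was left out (adjusted p 0.0518 to 0.0871). F13a1, the A chain of factor XIII of platelets and monocytes, rose by 1.57 (SE 0.10, adjusted p = 4.71e-06).

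Of 19 further platelet surface receptors, 4 fell and 2 rose (median -0.05, and 0.09 after centring). Ptger3, a prostaglandin E2 receptor, was 3.86, 3.57, 3.48 and 2.84 in L-GMP replicates A to D, against 7.39, 8.05, 7.5 and 8.25 in GMP replicates A to D. These groups lay far apart, and Ptger3 fell by 4.36 (SE 0.24, adjusted p = 1.52e-06). Cd9, a tetraspanin abundant on platelets, fell by 1.89 (SE 0.15). The others that fell, chosen after their values were seen, were the tetraspanin Cd151, by 0.89, and F2rl2, a thrombin receptor (PAR3) of mouse platelets, by 0.78. Ptgir, the prostacyclin receptor, rose by 1.71 (SE 0.30, adjusted p = 0.00554), and Fcer1g, the shared ITAM chain that also serves Fc receptors of myeloid cells, rose by 1.21 (SE 0.14).

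Of 17 genes that carry signals from these receptors to the integrin, 3 fell and 0 rose (0 rose at an unadjusted p under 0.05 in limma). Prkcq, protein kinase C theta, fell by 1.49 (SE 0.22, adjusted p = 0.00163) and Lat, an adaptor of ITAM signalling, by 0.72 (adjusted p = 0.0153), a call lost under quantile normalization (0.0604). Rasgrp2, the calcium-dependent activator of RAP1, fell by 0.42 (adjusted p = 0.0273), and its call was lost without 5 of the 8 arrays, after centring and with the replicate letter as a block. Rap1b itself, highest in mean, had a change of 0.11 (adjusted p = 0.672).

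Of 20 genes of proplatelet formation and granule biogenesis, 5 fell and 0 rose (1 higher at an unadjusted p under 0.05 in limma, and 1 past the threshold without L-GMP replicate B). Slc35d3, needed for the dense granules of mouse platelets, fell by 2.35 (SE 0.27, adjusted p = 0.000332), and Actn1, the cytoskeletal alpha-actinin 1, by 2.35 (SE 0.17). Rab27b, the small GTPase of dense granule secretion, was 3.44, 3.71, 3.20 and 3.15 in L-GMP replicates A to D, against 6.14, 4.27, 5.29 and 6.74 in GMP replicates A to D. It was lowest of the GMP arrays in replicate B, as Pf4, Vwf and Itga2b were, but highest in replicate D. Replicate B was the lowest GMP array in 4 of the 20 genes, beside 18.6% of all probe sets. Rab27b fell by 2.24 (SE 0.43, adjusted p = 0.00808). Dtnbp1, of a granule trafficking complex, and Gfi1b, chosen after their values were seen, fell by 0.67 and 1.43. Myh9, non-muscle myosin heavy chain IIA and highest in mean, had a change of 0.11 (adjusted p = 0.636).

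Of 20 transcription factors and cofactors of megakaryocytes, 6 fell and 3 rose (median -0.20). Without GMP replicate B, 1 rose. Tal1 fell by 3.52 (SE 0.15, adjusted p = 2.85e-07) and Meis1, which the leukaemia's label names, by 3.05 (SE 0.20) in its brightest probe set. Whether the Meis1 probe sets read all of its transcripts was not tested. Gata1 was 4.44, 4.89, 4.32 and 4.41 in L-GMP replicates A to D, against 6.28, 6.17, 6.27 and 6.06 in GMP replicates A to D. The GMP arrays hardly differed in Gata1, unlike in Pf4, and it fell by 1.68 (SE 0.14, adjusted p = 2.77e-05). The remaining factors past the threshold were chosen after their values were seen. Gfi1b, the repressor that megakaryocyte and red cell development needs, fell by 1.43 (SE 0.27), with GMP replicate A the highest and B the lowest GMP array, and Mecom and Lmo2 fell by 0.78 and 0.48. Lyl1, Mafg and Srf rose by 0.56, 0.55 and 0.50. Fli1, the ETS factor of the lineage, had a change of -0.11 (adjusted p = 0.699), Runx1 of -0.29 (0.295) and Nfe2, which drives platelet release, of -0.30 (0.139), also chosen after their values were seen. Myb, highest in mean, had a change of -0.20 (adjusted p = 0.326).

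Of 11 genes that act downstream of the thrombopoietin receptor, limma called 0 in either direction, with 2 lower and 1 higher at an unadjusted p under 0.05. The largest change was that of the kinase Jak2 (-0.47, SE 0.21, adjusted p = 0.18), and the ubiquitin ligase Cbl, highest in mean, had a change of 0.15 (adjusted p = 0.409). Without L-GMP replicate B 1 was higher, and without L-GMP replicate D 1 was lower.

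Lineages that share a progenitor with megakaryocytes were counted in the same way. Of 22 erythroid genes, 5 fell and 0 rose (median -0.28, 1 higher at an unadjusted p under 0.05 in limma). Car2, a carbonic anhydrase, fell by 4.32 (SE 0.22), Hemgn, a nuclear protein of red cell precursors, by 3.79 (SE 0.18) and Car1 by 1.80 (SE 0.49, adjusted p = 0.0412). Hbb-b2 and Aqp1, chosen after their values were seen, fell by 1.76 and 1.18. With an offset of 16 there were 2 falls in place of 5. Leaving out L-GMP replicate A or C left 2, and leaving out L-GMP replicate D, GMP replicate C or GMP replicate D left 3. After centring, under quantile normalization and without GMP replicate A, 1 rose. Car1 was 7.23 in GMP replicate A and 4.35 to 5.33 in the other GMP arrays, and its call was lost in 8 of 17 alternatives. Hba-a2, highest in mean, had a change of 0.19 (adjusted p = 0.296). Of 18 stem cell and multipotent progenitor genes, 8 fell and 0 rose (0 also at an unadjusted p under 0.05 in limma), with a median of -0.47. Angpt1, Tek and Tie1 fell by 3.13, 2.48 and 2.01, and Cd34, highest in mean, had a change of -0.20 (adjusted p = 0.677). Of the 17 endothelial genes, which include Tek and Tie1, 3 fell and 1 rose, namely Pecam1, by 0.75. The other to fall was Emcn, an endothelial sialomucin, by 0.71, named once its value was known.

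**Figure D4:**
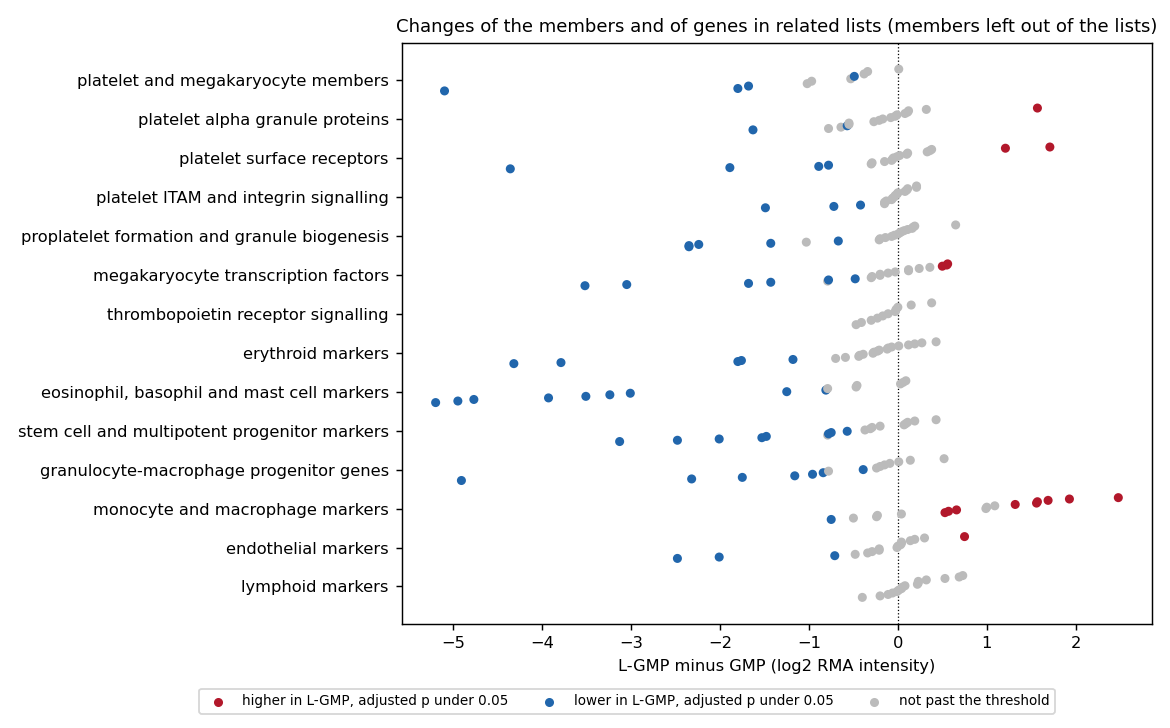
Change of each gene, L-GMP minus GMP, in log2 RMA intensity (x axis) for the members and for the genes of 13 lists with the members left out (rows); blue genes were lower and red genes higher in L-GMPs at an adjusted p under 0.05, and grey genes were not past the threshold. The eosinophil, basophil and mast cell row has 9 of 15 genes lower and the monocyte and macrophage row 9 of 17 higher.

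Myeloid lists stood on both sides. Of 15 eosinophil, basophil and mast cell genes, 9 fell and 0 rose (0 also at an unadjusted p under 0.05 in limma). Prg2, Ms4a2 and Epx fell by 5.20, 4.95 and 4.77, and Mcpt8, highest in mean, had a change of -0.46 (adjusted p = 0.262). Of 15 GMP genes, 7 fell and 0 rose (1 higher at an unadjusted p under 0.05 in limma, and 1 past the threshold without L-GMP replicate B). Nkg7, Fcnb and Elane fell by 4.91, 2.32 and 1.75, and Mpo, highest in mean, by 0.39. The Elane call was lost with a trended robust prior (adjusted p = 0.0527), and the Mpo call after centring (0.12), with the replicate letter as a block and without 6 of the 8 arrays. Of 17 monocyte and macrophage genes, 9 rose and 1 fell, namely Cx3cr1, the fractalkine receptor (by 0.75, named once its value was known). The Cx3cr1 call was lost after centring, under quantile normalization, with an offset of 16, and on leaving out GMP replicate B or one of L-GMP replicates A, C and D, which left 0 lower. Cd68, Mpeg1 and Ctss rose by 2.48, 1.93 and 1.69. Of 16 lymphoid genes limma called 0, with 0 lower and 3 higher at an unadjusted p under 0.05. The largest lymphoid change was that of Il7r (0.73, adjusted p = 0.14) and Cd79b was highest in mean (-0.40, adjusted p = 0.286). After centring, without L-GMP replicate B and without GMP replicate A, 1 lymphoid gene was higher.

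The genes whose profile over the 8 arrays was most like that of Pf4 were found by the root mean square difference of log2 profiles, each centred on its own mean. F2r, the thrombin receptor PAR1, was nearest (0.67). It was 2.22, 2.48, 2.59 and 2.36 in L-GMP replicates A to D, against 7.63, 5.67, 6.33 and 7.35 in GMP replicates A to D, and shared the order A, D, C, B of the GMP arrays. Ctla2a (0.79), Rab38 (0.83), Dnajc6 (0.88) and Nkg7 (0.90) followed, with changes of -5.28, -5.14, -4.79 and -4.91. For Itga2b the nearest were Sall2 (0.19), Nckap1 (0.21), Adcy6 (0.22), Acss2 (0.23) and Zbtb16 (0.24), with changes of -1.45, -1.54, -1.35, -1.51 and -1.90. GMP replicate A was the highest GMP array in all of these except Ctla2a, Dnajc6 and Nckap1, which were highest in replicate D. The measure favours genes with a like group difference and a like order of the GMP arrays. A shared order therefore follows in part from how these genes were picked. Their function was not taken into account.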

How the data were processed

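RNA of sorted mouse bone marrow cells was measured on 8 Affymetrix arrays, 4 L-GMP and 4 GMP, grouped by sample title. Per the submitters' processing notes the authors used RMA (version not given in the sources used here). The deposited intensities are linear and run from 3.54 to 29746.73, with 0 unused columns. RMA removes background, makes the arrays' distributions alike and combines the probes of a set, so low values are compressed. The labels name a sense-strand whole transcript assay but the probe sets belong to a 3′ expression array, which was not settled here. Neither detection calls nor batches were used. Precision is limited by having 4 arrays a group.

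Log2 was taken and 64 control probe sets were left out. Of 45037 others, 34945 had 1 gene symbol in the platform annotation, 932 several and 9160 none; 34741 matched RefSeq (GRCm38.p6) by Entrez identifier, with 0 symbols changed. limma (version 3.58.1, R 4.3.3; lmFit and eBayes on group alone, 2-sided, Benjamini-Hochberg over all 45037) gave changes, SE, 95% intervals and adjusted p. In the lists a gene is its brightest probe set by the mean over 8 arrays, with p-values from the same fit. The fit was tested on simulated data made for L-GMP against GMP, in which each probe set had the same SD in both groups. Over 45037 probe sets it found 79% of 100 given a log2 change of 1 and 99% of 100 given a change of 2. Of its calls 2.2% were false. The changed probe sets were drawn at random, whereas the members had a median SD among GMP arrays of 0.44, beside 0.18 over all probe sets. These rates therefore need not hold for the members.

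The members and lists were chosen with earlier results of these data known. Named were all members; from each list the 3 other genes with the largest changes past the threshold (with none, the largest change) and the highest mean; and the 5 genes most like Pf4 and Itga2b, predicted genes left out. Others are marked as chosen after their values were seen. Alternatives were 2 other scalings, an offset of 16, 2 filters on dim probe sets, 1 value per gene by 2 rules, array weights, a trended robust prior, a block for the replicate letter and each array left out. The letters are not stated to pair samples, and same-letter arrays did not deviate together (correlations -0.07 to 0.103 over probe sets).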

Additional observations from a re-analysis of the deposited data

Results flagged for a closer look

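In a group of 4 arrays, an array stood out by its gap to the nearest other array, as a share of the group's range. The gap had to exceed Dixon's 95% critical value, which chance gives in about 1 group in 20. Each member probe set and each gene named by rule was checked in each group. Of these 124 groups 9 had such an array. Other genes of the text, such as those chosen after their values were seen, were not checked. Among the members, Vwf was 4.78 in L-GMP replicate B, with the other L-GMP arrays at 4.29 to 4.32, and Gp1bb (1456427_at) was 5.61 in GMP replicate A, with the others at 5.13 to 5.17. In GMP replicate A, Myh9 was 12.32 (others 11.92 to 11.96), Cd68 6.70 (6.87 to 6.89) and Mpeg1 8.78 (9.21 to 9.26). In L-GMP replicate B, Nkg7 was 7.20 (others 5.29 to 5.58). In L-GMP replicate D, Actn1 was 4.66 (4.28 to 4.32) and Car2 5.26 (4.18 to 4.35), and in L-GMP replicate C, Prg2 was 6.37 (4.44 to 4.72).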

How the results depend on the processing

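The falls of Pf4, Vwf and Itga2b were past the threshold under every alternative run on them, with changes of -5.65 to -4.00, -2.17 to -1.31 and -1.80 to -1.46; the filters on dim probe sets removed Vwf in 1 case. The Gp5 change of -0.49 was -0.35 after median centring (adjusted p = 0.114), -0.22 with an offset of 16 (0.057) and -0.49 with the replicate block (0.0745). Besides the Gp5 call, the block lost 2 calls among the other named genes, Mpo and Rasgrp2, and no further call among members. Without each array in turn the Gp5 change was -0.59 to -0.43, Ppbp -1.29 to -0.64, Treml1 -0.72 to -0.31 and Gp9 -0.12 to 0.11. Gp9 was uncalled throughout and changed sign when L-GMP replicate B (0.00), C (-0.06), D (-0.02), GMP replicate B (-0.01) or GMP replicate C (-0.12) was left out. Leaving out the dimmest 50% of probe sets kept 3 member probe sets, of which 2 were lower, in place of 4 of 10; that filter removes Vwf and Gp5 themselves. The count lower was 3 or 4 under the other alternatives, and 0 were higher under all. Over all probe sets 35.6% of 4921 calls were higher, 65.9% of 6523 after centring and 46.8% of 5263 after quantile normalization, and there were 2972 calls without GMP replicate B, 3284 without C and 3244 without D. Among other named genes, Cd34 (-0.38 to 0.02 without each array) changed sign without L-GMP replicate B (0.02) and Rap1b (0.00 to 0.17) without L-GMP replicate D (0.00), both uncalled. Il7r passed without L-GMP replicate B (0.98, adjusted p = 0.0314). Signal near the bottom of the RMA scale limits Pf4, Ppbp, Gp5 and Gp1bb (1422977_at) in L-GMPs.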

Other observations

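The order of the GMP arrays seen in Pf4 was looked up in further genes chosen after their values were seen. Over whole lists without members, replicate A was the highest GMP array in 4 of 17 alpha granule genes and 8 of 19 surface receptors. It was highest in 4 of 17 signalling genes and 9 of 20 proplatelet and granule genes. For transcription factors it was highest in 11 of 20, and for thrombopoietin receptor signalling in 5 of 11. In the same lists it was lowest in 3, 7, 4, 4, 4 and 0 genes. Over all probe sets it was highest in 29.1% and lowest in 32.7%. Gfi1b was 6.71, 5.47, 6.22 and 5.96 in GMP replicates A to D, and Aqp1, a water channel of red cells, was 5.65, 3.92, 4.82 and 4.84, both highest in replicate A and lowest in replicate B. Hbb-b2, an adult beta globin, was 5.35, 3.94, 6.46 and 4.97, lowest in replicate B but highest in replicate C. Mmrn1, the alpha granule protein multimerin 1, was 3.95, 2.98, 3.55 and 4.05 in GMP replicates A to D, against 2.99, 3.26, 2.98 and 3.10 in L-GMP replicates A to D, with a change of -0.55 that was not past the threshold (adjusted p = 0.129). The eosinophil peroxidase gene Epx was instead highest in replicate B and lowest in replicate C, with 8.29, 10.91, 7.47 and 7.86 in GMP replicates A to D. Gp6, the collagen receptor, was 2.96, 2.48, 2.87 and 2.81 in GMP replicates A to D, again highest in replicate A and lowest in replicate B, with a change of -0.01 (adjusted p = 0.974). Tubb1, the platelet beta tubulin, was 2.96, 2.79, 2.74 and 3.08, highest in replicate D and lowest in replicate C, with a change of -0.20 (adjusted p = 0.297). Both genes lay near the bottom of the GMP arrays, Gp6 at percentile 3.72 to 11.8 and Tubb1 at percentile 7.9 to 13.9. The order of arrays in such dim values cannot be read with confidence. Cpa3, a mast cell protease gene, was 3.46, 9.05, 5.19 and 6.75 in L-GMP replicates A to D, against 9.93, 9.37, 8.96 and 9.17 in GMP replicates A to D. It was far apart among the L-GMP arrays and close among the GMP arrays, and fell by 3.24 (adjusted p = 0.0479).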
